A study of Mus musculus with 5 samples.

Results

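Fat tissue lies against the outer wall of the stomach and intestine, and its transcripts can enter RNA prepared from a whole organ. Expression of 10 fat cell genes (Adipoq, Plin1, Cidec, Cfd, Fabp4, Retn, Lep, Car3, Lpl and Pparg) was followed in gut RNA of 5 groups of mice. The genes were taken as a fixed list of known fat cell genes, each read from the probe set that names that gene alone. Of the 10, 9 were measured, among 19938 genes in all. Cfd, which encodes the secreted protease adipsin, had no probe set naming it alone and is not analysed here. Each of the other 9 had 1 such probe set.

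The mice were male, of the outbred ddY stock, 5 weeks old, and each group was measured on 1 Affymetrix Mouse Gene 1.0 ST array. All mice had 2 oral administrations 0.5 h apart, and gut was taken 4 h after the last. The GA+GA group had gum arabic (GA, the vehicle) both times, and the LG21+GA group had Lactobacillus gasseri OLL2716 (LG21, a probiotic strain) and gum arabic. The other 3 groups had aspirin (Asp) with gum arabic (GA+Asp), with teprenone, a mucosal protective drug (Tep+Asp), or with LG21 (LG21+Asp). Gum arabic thus took the place of the pretreatment in GA+Asp and of aspirin in LG21+GA. RNA was made from part of the collected gut, and the labels do not say whether an array holds 1 mouse or several. With 1 array a group, a pair of groups has no replicate check, and no error can be attached to a single difference.

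White fat cells store triglyceride in 1 large droplet and release hormones. Pparg encodes the nuclear receptor that drives fat cell formation and turns on many of the other genes. Lpl encodes the lipase that frees fatty acids from circulating lipoproteins, Fabp4 carries them inside the cell, and Cidec and Plin1 encode proteins that enlarge and coat the droplet. Adipoq (adiponectin), Lep (leptin) and Retn (resistin) encode hormones, and Car3 encodes a cytosolic carbonic anhydrase abundant in fat. Several of these genes are also used elsewhere: Fabp4 in capillary endothelium and macrophages, Lpl in muscle and macrophages, Car3 in skeletal muscle and liver, and Pparg in gut epithelium.

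The fat cell genes differed little between the arrays. No member differed 2-fold between any arrays, and 6 of the 9 stayed within 0.2 on the log2 scale from the highest to the lowest array. The other members were Car3, Pparg and Adipoq, with 0.73 (1.65-fold), 0.45 (1.36-fold) and 0.42 (1.34-fold) between their extremes. Among all genes 0.813% spanned at least 2-fold and 16.7% at least 0.2, and among genes above the median level, 7.41, the shares were 0.632% and 12.1%. Leaving out any 1 array left the same 3 genes at 0.2 or more. In bulk RNA, fewer fat cells, less RNA of a gene per cell and a difference in other cells that use the gene cannot be told apart.

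The tissue label was checked against markers. The 9 measured genes of the gastric mucosa list had a median level between 13.29 and 13.32 on the 5 arrays. The 10 intestinal genes of a list added after the data were seen had a median between 7.29 and 7.56. They ran from Sis (sucrase-isomaltase), at 4.65 to 4.97, to the stem cell gene Lgr5, at 8.79 to 8.91. As a measure of background, also added after the data were seen, 1027 odorant receptor genes, silent in most tissues, had a median of 4.66, with their 5th and 95th percentiles at 2.74 and 6.31. Of the intestinal genes 1 of 10 lay within that range and 5 lay above the median level of all genes. Cdx2 (6.40 to 6.43) and Muc2 (6.59), named after their values were seen, stood just above the range. Most liver genes differed widely between arrays, 12 of the 14 measured hepatocyte genes by at least 2-fold, beside 0.813% of all genes. Alb, which encodes albumin, was at 12.69 in GA+GA and 7.43 in GA+Asp. The exceptions were Apoa1, which spanned 0.0581, and Ttr, which spanned 0.41, both named after their values were seen. The male-specific genes Uty, Eif2s3y and Kdm5d lay between 8.01 and 9.53, and Xist between 4.88 and 4.91.

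Among the hormones, Adipoq had a value of 6.91 in GA+GA, 6.80 in LG21+GA, 6.49 in GA+Asp, 6.75 in Tep+Asp and 6.62 in LG21+Asp. The GA+Asp array was the lowest, and the 3 aspirin arrays all lay below both arrays without aspirin. The mean of Adipoq over the arrays lay above the 95th percentile of the odorant receptors, which 1.46% of these receptors reached, but below the median of all genes. Lep had the same value, 5.88, on 4 arrays and 5.92 in LG21+GA. It was the member inside the odorant receptor range, where 12.4% of the receptors lay at or above it, so its flat values cannot be read as a steady level of leptin RNA. The mean of Retn, like that of Adipoq, was below the median of all genes. Retn stood at 7.12 on the GA+GA, LG21+GA and Tep+Asp arrays, at 7.14 in LG21+Asp and at 6.95 on the GA+Asp array. Only the GA+Asp array differed by more than 0.1 from the others for Retn.

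The droplet genes were the flattest of the members. Plin1 was at 7.12 on 4 arrays and at 7.14 in LG21+Asp. Its mean lay above the 95th percentile of the odorant receptors but below the median of all genes, 7.41. The flat values of Plin1 are thus those of a gene with a low signal. Cidec, well above the odorant receptor range, stood at 8.85 in GA+GA, LG21+GA and LG21+Asp, at 8.84 in GA+Asp and at 8.86 in Tep+Asp. The whole span was 0.0185 for Plin1 and 0.0191 for Cidec, and 86.9% and 86.6% of all genes spanned at least as much. Exact ties limit how finely such values can be read. Plin1, Cidec, Retn and Lep each had at least 2 arrays with the same deposited value, as did 77.7% of all genes.

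The genes of fatty acid supply, Lpl and Fabp4, also differed little. Fabp4 was at 9.49 in GA+GA, 9.37 in LG21+GA, 9.45 in GA+Asp, 9.48 in Tep+Asp and 9.45 in LG21+Asp. The array of LG21 without aspirin was thus the lowest for Fabp4, and the aspirin arrays lay between it and the vehicle array. Lpl was at 10.55 in GA+GA, 10.63 in LG21+GA, 10.67 in GA+Asp, 10.63 in Tep+Asp and 10.67 in LG21+Asp. The vehicle array was the lowest for Lpl, and LG21+GA and Tep+Asp were equal to 2 decimals. Capillary endothelium and macrophages use these genes too. From the highest to the lowest array 0 of 11 endothelial and 3 of 12 macrophage genes spanned at least 0.2, beside 16.7% of all genes. With aspirin alone 0 genes of either list differed by 0.2, beside 5.33% of all genes. In Tep+Asp 11 of 12 macrophage genes were above GA+Asp, 1 of them by at least 0.2, beside 2.79% of all genes. Above LG21+Asp were again 11 of 12, 1 by at least 0.2, beside 2.06% of all genes. Of 11 endothelial genes 9 were above GA+Asp and 9 above LG21+Asp in Tep+Asp, 0 of them by at least 0.2. All these counts use the same Tep+Asp array. The median difference of all genes was 0.00 in both pairs, and the share of all genes above was not counted. Fabp4 was higher in Tep+Asp by 0.03 in both pairs, while Lpl differed by -0.04 from GA+Asp. The part of these cells in the values of Fabp4 and Lpl was not tested.

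Car3 and Pparg varied most. Car3 was at 10.33 in GA+GA, 9.88 in LG21+GA, 9.60 in GA+Asp, 9.78 in Tep+Asp and 9.83 in LG21+Asp. The vehicle array stood 0.45 above the next, and the other 4 arrays spanned 0.27. Pparg was at 10.89 in GA+GA, 10.99 in LG21+GA, 10.66 in GA+Asp, 10.54 in Tep+Asp and 10.63 in LG21+Asp. Here both arrays without aspirin were high, the 3 aspirin arrays were low, and the groups did not overlap. Pparg is also used in gut epithelium, and the part of epithelium in its values was not tested.

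**Figure D1:**
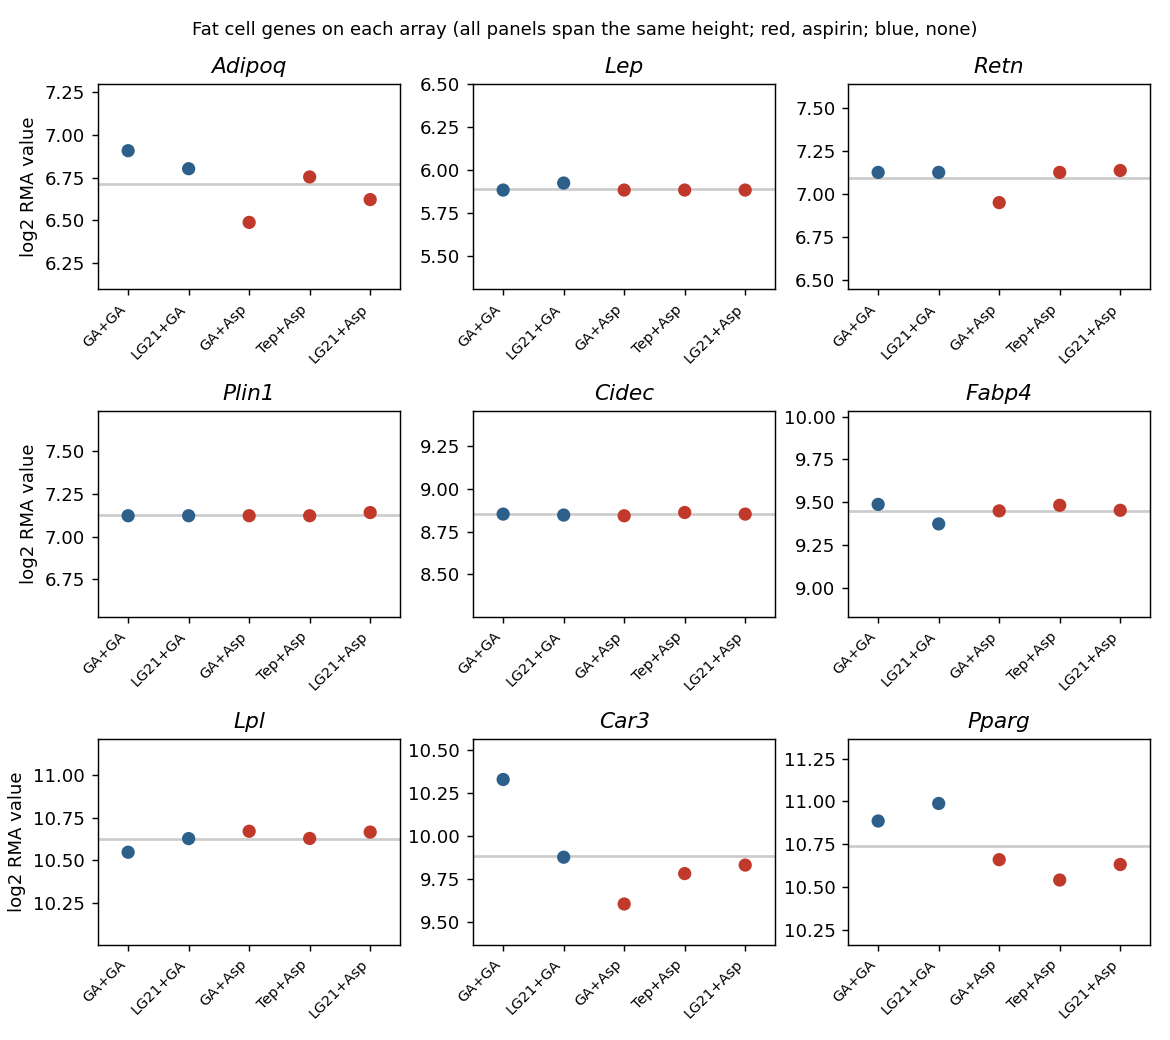
Log2 RMA value of each measured fat cell gene (vertical axis) on the 5 arrays (horizontal axis); each point is 1 array, the grey line is the mean of the 5, and all panels span the same height. Plin1, Cidec and Lep are flat, Car3 is highest in GA+GA at 10.33, and Pparg is lower on the 3 aspirin arrays (10.54 to 10.66) than on the other 2 (10.89 and 10.99).

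Aspirin alone, GA+Asp against GA+GA, went with lower values of a few members. The difference was -0.73 for Car3 (1.65-fold), -0.42 for Adipoq (1.34-fold) and -0.23 for Pparg (1.17-fold), and 0.12 for Lpl. These were 3 of 9 members at least 0.2 lower, and 0 were that much higher. Among all genes 3.31% were at least 0.2 lower and 2.02% higher, and 0 members against 0.532% of all genes were 2-fold apart. Of all genes, 0.727% differed by as much as Car3 and 1.40% by as much as Adipoq, in either direction. The median of the 9 members was -0.04, and that of all genes 0.00.

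LG21 without aspirin, LG21+GA against GA+GA, shares the vehicle array with that comparison. Car3 was lower again (-0.45, 1.37-fold), the single member of 9 past 0.2, where 2.16% of all genes were at least 0.2 lower and 1.36% higher. Adipoq (-0.11) and Fabp4 (-0.11) were below the vehicle, Pparg (0.10) and Lpl (0.08) above it, and Plin1 and Retn were equal on both arrays. No member was 2-fold apart, against 0.11% of all genes.

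The study's title asks whether the probiotic strain weakens the effects of aspirin. LG21 before aspirin was compared with aspirin alone, LG21+Asp against GA+Asp. Car3 (0.23) was the single member at least 0.2 higher, beside 4.24% of all genes, and 0 were lower by as much, beside 2.34%. No member was 2-fold apart, against 0.276% of all genes. Retn (0.19) and Adipoq (0.13) were also above GA+Asp, and Pparg (-0.03) and Lpl (-0.0048) were not. Against GA+GA, Car3 was at -0.73 with aspirin alone and -0.50 after LG21, and Adipoq at -0.42 and -0.29. The GA+Asp array is part of both comparisons, so a low value there gives a negative difference in one and a positive difference in the other.

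Tep+Asp against GA+Asp, the comparison for teprenone, uses the GA+Asp array too. Adipoq (0.27, 1.20-fold) was the single member at least 0.2 higher, beside 2.79% of all genes, and 0 were lower, beside 1.69%. None was 2-fold apart, against 0.1% of all genes. Retn and Car3 each differed by 0.18, and Pparg by -0.12. Between the pretreatments, LG21+Asp against Tep+Asp, 0 of 9 members differed by 0.2 or 2-fold. Of all genes 2.06% were at least 0.2 lower, 2.71% higher and 0.286% 2-fold apart. The furthest were Adipoq (-0.13) and Pparg (0.09).

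Aspirin after LG21 was read from LG21+Asp against LG21+GA, 2 arrays that play no part in aspirin alone. Pparg was lower (-0.36, 1.28-fold), the single member of 9 past 0.2, where 2.56% of all genes were at least 0.2 lower and 1.8% higher, and 0 members against 0.206% of all genes were 2-fold apart. Adipoq was at -0.18. Car3 was at -0.05, against -0.73 without LG21, and this interaction of 0.68 was not tested, with 1 array in each group. For Pparg the aspirin differences were -0.23 with the vehicle and -0.36 with LG21, an interaction of -0.13. For Adipoq they were -0.42 and -0.18. Pparg and Adipoq were thus lower with aspirin in both pairs that share no array, Car3 mainly in the vehicle pair.

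**Figure D2:**
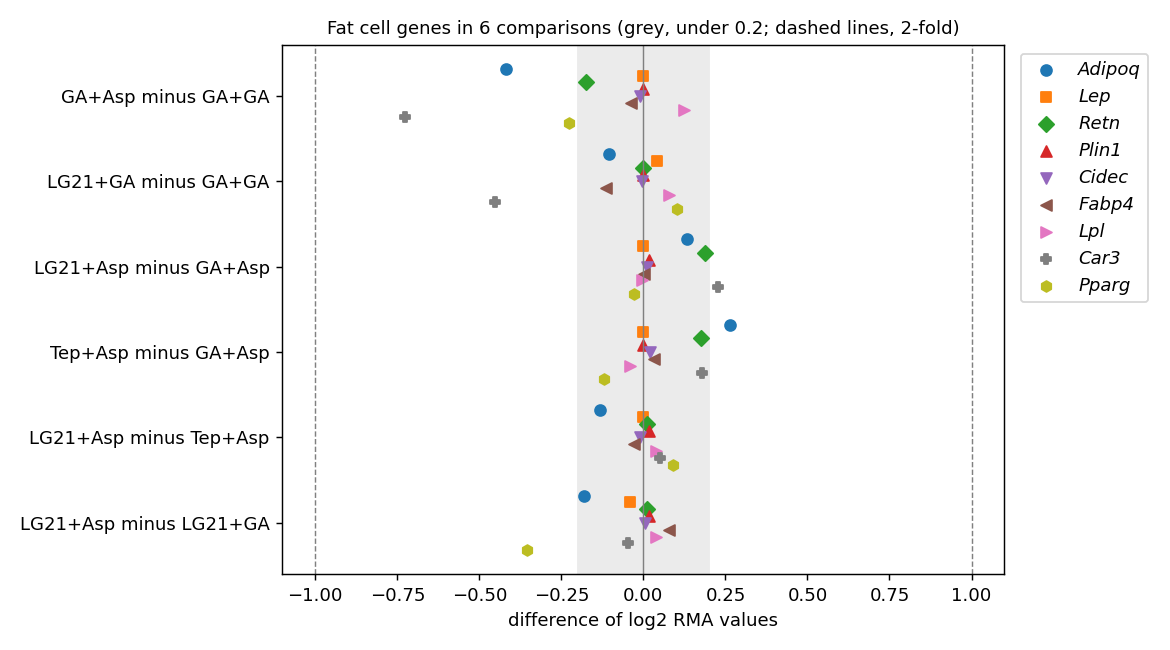
Difference of log2 RMA values (horizontal axis) of the 9 measured fat cell genes in 6 comparisons (rows); each point is 1 gene, the grey band covers differences under 0.2, and dashed lines mark 2-fold. Points outside the band are Car3, Adipoq and Pparg with aspirin alone, Car3 in 2 further comparisons, Adipoq with teprenone and Pparg with aspirin after LG21.

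One contrast of the labels has more than 1 array on each side: the 3 aspirin arrays against the 2 without, with arrays of different pretreatments standing in for replicates. All 3 aspirin arrays were lower for Pparg, Car3 and Adipoq, 3 of 9 members beside 3.45% of all genes, and higher for Lpl, 1 of 9 beside 5.45%. The 2 nearest Lpl arrays were equal to 2 decimals. The mean difference was -0.33 for Pparg (10.61 with aspirin, 10.94 without), -0.36 for Car3 (9.74 and 10.10), -0.23 for Adipoq (6.62 and 6.85) and 0.07 for Lpl (10.65 and 10.59). For Car3 it was -0.14 without the GA+GA array and -0.59 without LG21+GA, and for Lpl 0.03 and 0.11.

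None of the 5 members above the median level of all genes passed limma's test in this contrast. Pparg had the largest difference relative to its standard error (SE 0.0534, limma adjusted p = 0.735 by Benjamini-Hochberg over 9969 genes), and Car3 (SE 0.169) and Lpl (SE 0.0308) had the same adjusted p. For Fabp4 limma's adjusted p was 0.805 and for Cidec 0.948. Of all 9969 genes limma called 0 (0.0%) at an adjusted p under 0.05, and 430 (4.31%) had an unadjusted p under 0.05, 1 of the 5 members among them. Without the LG21+GA array 82 genes were called, 60 higher and 22 lower, and 0 of them were members; that fit leaves GA+GA alone on its side and assumes that it varies like the aspirin arrays. Adipoq, below the filter, had an adjusted p of 0.833 in the limma fit without a filter. An exact two-sided permutation test of the absolute mean difference, 3 arrays against 2, cannot go below p = 0.1. Pparg, Car3 and Lpl gave this exact p of 0.1, and Adipoq an exact p of 0.2. Only these 4 members, whose aspirin arrays did not overlap the others, were put to the permutation test. Values at or near its floor thus follow from that choice and add no evidence.

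Car3 is also a liver and muscle gene, and liver genes moved with it. Its arrays ranked, from low to high, GA+Asp, Tep+Asp, LG21+Asp, LG21+GA, then GA+GA. Of the 14 measured genes of the hepatocyte list, a list whose pattern was known from earlier results, 12 had that order, as had 3.47% of the 4441 genes with 5 distinct values. Among 142 genes above the median level with at least 0.5 between extreme arrays, 37 had it. The hepatocyte list had a median of -0.68 in LG21+GA, -1.44 in LG21+Asp, -2.31 in Tep+Asp and -3.03 in GA+Asp, all against GA+GA. Car3 stood at -0.45, -0.50, -0.55 and -0.73 on these arrays. Alb itself was at -0.31 in LG21+GA, a smaller difference than the list median, and at -5.25 in GA+Asp, a larger one. With aspirin alone, 12 of the 14 hepatocyte genes were at least 0.2 lower and 0 higher, and of 15 skeletal muscle genes 0 were lower and 8 higher. Of all genes 3.31% were lower and 2.02% higher by as much. The part of liver or muscle RNA in the values of Car3 was not tested.

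**Figure D3:**
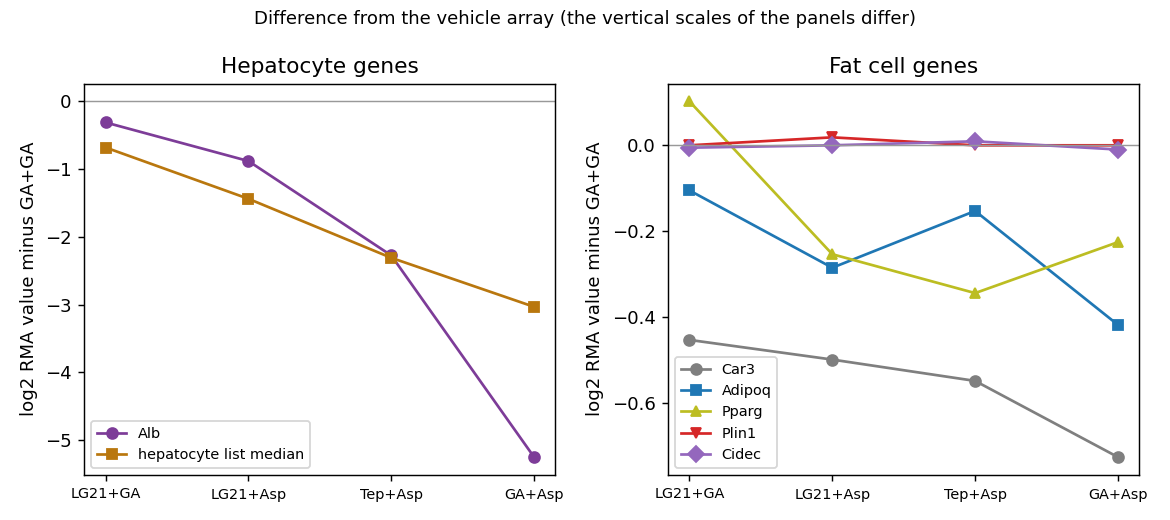
Log2 RMA value minus that of the GA+GA array (vertical axes, which differ in scale) for hepatocyte genes (left) and 5 fat cell genes (right) on the other 4 arrays (horizontal axis), ordered by the hepatocyte median; each point is 1 array or, for the list, the median of 14 genes, and lines only join points. Car3 goes from -0.45 to -0.73 in the same order as the hepatocyte median, while Plin1 and Cidec stay between -0.01 and 0.02.

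Genes most like Adipoq were sought among 141 other genes above the median level with at least 0.5 between extreme arrays. By Pearson's r over the 5 arrays the 10 nearest were Apoe (0.970), C4b (0.958), Scd1 (0.952), Cyp2f2 (0.939), Ccna2 (0.931), Apoa5 (0.922), Cp (0.894), Cyp2d26 (0.883), Pck1 (0.880) and Bhmt (0.878). Apoe and Apoa5 encode apolipoproteins, Cp encodes ceruloplasmin and C4b a complement protein. Scd1 encodes the desaturase that makes monounsaturated fatty acids. With 5 points such values are a description, and 6 of the 141 genes reached 0.9 with Adipoq, 32 with Car3 and 1 with Pparg. All 10 were highest in GA+GA and lowest in GA+Asp, as was Adipoq, by which they were chosen. Of the 14 measured hepatocyte genes 13 were highest in GA+GA and 12 lowest in GA+Asp. Bhmt is itself 1 of the 14, and Pck1 is also a liver gene. The other neighbours were not sorted by tissue, so the number of liver genes among the 10 is not given. None of the 14 had the exact array order of Adipoq, in which Tep+Asp (6.75) stood above LG21+Asp (6.62). The order of Car3, which 12 of the 14 had, differed from it only in that pair. The part of liver RNA in the values of Adipoq was not tested.

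A wider list of 54 fat cell genes, the members included, had 51 measured genes. Its median difference was 0.00 in each of the 6 comparisons, but with aspirin alone 9 of the 51 genes were at least 0.2 lower and 1 higher, beside 3.31% and 2.02% of all genes. Without the members these counts were 6 and 1 of 42. Among all genes 16.7% spanned at least 0.2 and 0.813% 2-fold. The 42 measured genes that are no member gave 34 with less than 0.2 between extreme arrays, 8 with more, and 3 that spanned 2-fold. Those 3 were Rbp4 (retinol binding protein, 10.03 in GA+GA and 8.13 in GA+Asp), Pck1 (the gluconeogenic enzyme phosphoenolpyruvate carboxykinase, 8.57 and 7.09) and Orm1 (the plasma protein orosomucoid, 7.15 and 5.71), Orm1 being named after its values were seen and lying within the odorant receptor range on average. All 3 are also liver genes. Scd1 went from 9.50 in GA+GA to 8.66 in GA+Asp, and the carboxylesterase gene Ces1d from 8.19 to 7.76. Both were lower on all 3 aspirin arrays, as were 12 of the 14 hepatocyte genes and 3.45% of all genes. The part of liver RNA in the values of the wider list was not tested. Hormone-sensitive lipase (Lipe) spanned 0.0229 and the glucose transporter Slc2a4 0.187, both named after their values were seen.

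**Figure D4:**
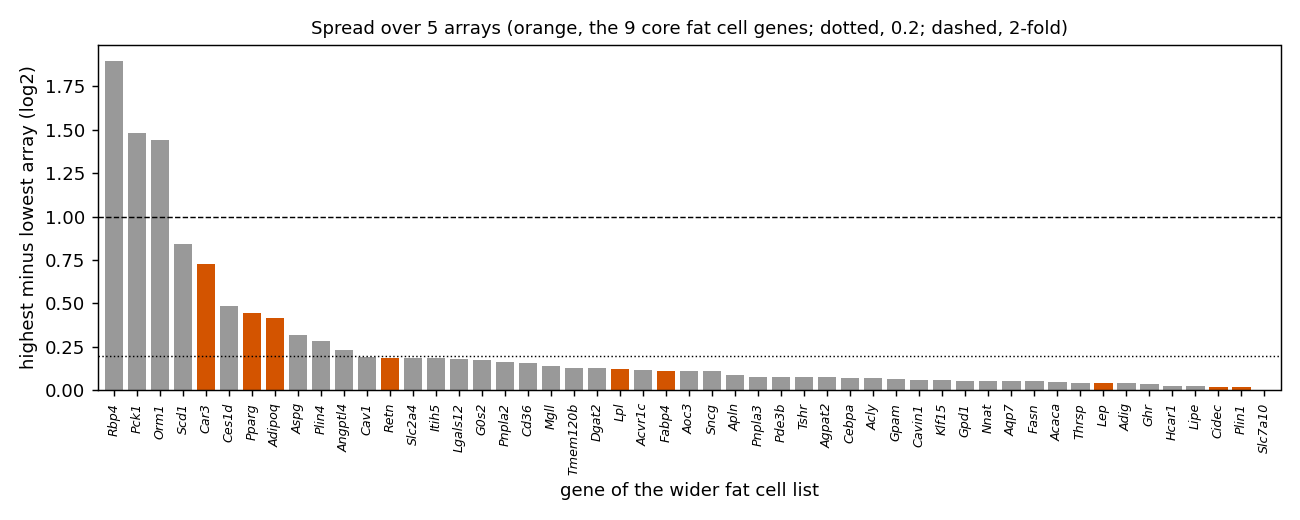
Highest minus lowest of the 5 arrays (vertical axis, log2) for the 51 measured genes of the wider fat cell list (horizontal axis); each bar is 1 gene, orange bars are the 9 members, the dotted line is at 0.2 and the dashed line at 2-fold. Rbp4, Pck1 and Orm1 pass 2-fold, Car3 is the highest member at 0.73, and Plin1 and Cidec are near 0.

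The pathway was also read by the steps it serves. Beside the list counts with aspirin alone stand 3.31% of all genes at least 0.2 lower and 2.02% higher. In the list of droplet proteins and lipolysis 0 of 13 genes were at least 0.2 lower with aspirin alone and 1 was higher, the perilipin Plin4 (8.06 in GA+GA, 8.27 in LG21+GA and GA+Asp, 8.34 in Tep+Asp and 8.27 in LG21+Asp). The vehicle array was its lowest. The triglyceride lipase Pnpla2 was at 9.85 in GA+GA and between 9.98 and 10.02 elsewhere. Of 16 genes of triglyceride and fatty acid synthesis 2 were lower with aspirin alone, Pck1 and Scd1, and 0 higher. The synthase Fasn, named after its values were seen, spanned 0.0519.

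Of 9 genes of lipid uptake 2 were at least 0.2 lower with aspirin alone, beside 3.31% of all genes. The share of all genes as much higher was 2.02%. Apoc3, a liver apolipoprotein that inhibits Lpl, went from 9.76 in GA+GA to 7.02 in GA+Asp. Angptl8, a secreted inhibitor of Lpl, was at 7.76 in GA+GA and between 7.42 and 7.52 on the other arrays. Angptl4, another inhibitor of Lpl, ran from 7.54 to 7.77. Among 15 transcription regulators of fat cells 0 were lower with aspirin alone and 1 was higher, the coactivator Ppargc1a (8.88 in GA+GA, 9.18 in LG21+GA, 9.41 in GA+Asp, 9.05 in Tep+Asp and 9.22 in LG21+Asp). Its vehicle array was the lowest. Cebpa, a partner of Pparg in fat cell formation, ran from 7.46 to 7.54.

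The list of receptors for fat cell products held 8 genes, of which 3 spanned at least 0.2 over the arrays: C5ar2, C3ar1 and the leptin receptor Lepr. Among all genes 16.7% spanned as much. Lepr, named after its values were seen, was at 7.02 in GA+GA, 7.05 in LG21+GA, 7.10 in GA+Asp and LG21+Asp and 7.27 in Tep+Asp. The complement receptor C3ar1 was at 8.14 in Tep+Asp and between 7.82 and 7.95 elsewhere, so that Tep+Asp was the highest array for both. Adipor1, an adiponectin receptor, ran from 10.46 to 10.48 and Adipor2 from 11.56 to 11.69. With aspirin alone 1 of the 8 genes was at least 0.2 lower and 0 were higher, beside 3.31% and 2.02% of all genes. The lower one was the complement receptor C5ar2 (6.67 in GA+GA, 6.41 in GA+Asp), named after its values were seen.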

How the data were processed

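Gene expression was measured on 5 arrays, 1 for each group. The authors deposited RMA values, which are corrected for background, normalized over the arrays and summarised by probe set, from Expression Console, per the labels, while the design text names another Affymetrix tool. The log2 scale of the deposited values was inferred from their range, 1.32 to 13.87. Software versions and the genome build are not stated in the labels, and no coordinates are printed. Of 35557 probe sets 21789 named 1 gene by the platform annotation, 1621 several and 12147 none; 21698 were matched to RefSeq by gene identifier. A gene with more than 1 probe set was read from the one of highest mean. The authors' normalization was kept.

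Arrays were subtracted on the log2 scale in 6 pairs, and differences counted at 2-fold and, as a threshold added after the data were seen, at 0.2. limma 3.58.1 in R 4.3.3 compared the 3 aspirin arrays with the other 2 over the 9969 genes above the median level, 7.41. On simulated data for that contrast over 9969 genes it recovered 100 of 100 genes planted at 3-fold and 91 of 100 at 1.5-fold, and called 10 of 9769 unchanged genes. The planted genes were drawn at random, with normal noise of the spread fitted to each gene. Of genes above the median level only 12.1% spanned at least 0.2. The recovery thus does not show that a gene as variable as Car3 (SE 0.169) could be called. The members, the lists and the tests were chosen with earlier results of these data known. List genes were named if above the median level and among the 6 of their list with the largest difference, and the 10 genes most like Adipoq were named. Members, Alb, Xist and male-specific genes were always named, and other names are marked as chosen after their values were seen. Alternatives were other fold thresholds and filters, the mean of probe sets, quantile normalization, cyclic loess with 3 iterations, LG21 as a covariate, a trended prior and leaving out each array. The number of arrays limits the precision.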

Additional observations from a re-analysis of the deposited data

How the results depend on the processing

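Counts of members 2-fold apart were 0 in all 6 comparisons and from the highest to the lowest array, and stayed 0 at 3-fold and under the mean of probe sets, quantile normalization and cyclic loess. At 1.5-fold 1 member passed with aspirin alone and 1 over the 5 arrays, in both cases Car3. At the added threshold of 0.2 the counts were 3 with aspirin alone, 1 each for LG21 alone, LG21 before aspirin, teprenone before aspirin and aspirin after LG21, and 3 over the 5 arrays. Leaving out each array gave 0 to 0 members at 2-fold and 3 to 3 at 0.2. The median of the wider list moved in 1 case, to a mean of -0.13 with aspirin alone in place of the median. With limma 0 members were called under all 11 alternatives, among them each array left out (0 to 0), and limma's adjusted p of Pparg ran from 0.246 to 0.833 over the 11. Where GA+GA or LG21+GA was left out, 1 array stood alone on its side, assumed to vary like the aspirin arrays. Pparg, Car3 and Adipoq stayed lower on all 3 aspirin arrays under quantile normalization and cyclic loess. The separation of Lpl was lost with cyclic loess, and Plin1 separated under quantile normalization by a mean of 0.0158; the cause was not tested. No paired analysis was possible because each group has 1 array. Lep lay within the odorant receptor range, which limits what its flat values show.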

Other observations

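Paralogs of the members were counted in the same way. Of 30 measured paralogs 2 were at least 0.2 lower and 2 at least 0.2 higher with aspirin alone, beside 3.31% and 2.02% of all genes. The lower ones were Fabp7, a fatty acid carrier of the nervous system (7.87 in GA+GA, 7.50 in LG21+GA, 7.41 in GA+Asp, 7.45 in Tep+Asp and 7.50 in LG21+Asp), and Fabp1, the liver carrier (8.51 in GA+GA and 8.13 to 8.21 on the other arrays). The higher ones were Plin4 and Fabp3, the muscle carrier, which was at 11.22 in GA+Asp and between 11.00 and 11.04 elsewhere.

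Markers of brown fat and of other tissues that can adhere to the gut were also read. Of 10 brown fat genes 5 lay within the odorant receptor range, among them Ucp1, the uncoupling protein of brown fat, named after its values were seen, at 5.96 to 6.01. The exception in size was Slc27a2, a fatty acid transporter and acyl-CoA synthetase also of liver, from 9.14 in GA+GA to 7.63 in GA+Asp. With aspirin alone 0 of 8 mesothelial genes, 0 of 13 pancreatic acinar genes and 1 of 8 lymph node genes were at least 0.2 lower. As much higher were 1, 2 and 0 of them, beside shares of 3.31% lower and 2.02% higher among all genes. The lymph node gene was the chemokine Cxcl13, at 8.47 in GA+GA and 7.99 in GA+Asp. Above the median level of all genes lay only 2 mesothelial, 5 acinar and 1 lymph node gene. Of the lymph node genes 4 lay within the odorant receptor range. The low counts thus cannot be read as a steady amount of these tissues.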
